A study of Mus musculus with 6 samples.

Results

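The genes described here are the 9 members of the MYC, MAX and MXD network that were chosen by gene symbol: Myc, Mycn, Max, Mxd1, Mxd3, Mxd4, Mxi1, Mnt and Mlx. All 9 were found among the 29955 genes of the deposited expression table, and all 9 had enough reads to be tested among the 16378 genes tested. RNA-seq had been performed on primary mouse embryonic fibroblasts (MEFs) at passage 3, with 3 libraries labelled Rnf40+/+ and 3 labelled Rnf40-/-. RNF40 is an E3 ubiquitin ligase needed for the monoubiquitination of histone H2B (H2Bub1).

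The Rnf40-/- cells came from embryos that carried loxP sites around exons 3 and 4 of Rnf40 and a tamoxifen-inducible Cre (CreERT2) driven from the ubiquitously active Rosa26 locus. For deletion, they were grown for 5 days with 250 nM 4-hydroxytamoxifen (4-OHT) and for 3 days without it. Whether the Rnf40+/+ libraries came from cells that carried the same Cre allele or received 4-OHT is not given in the sources used here, so deletion and treatment cannot be told apart. Nothing says that the 3 cultures of a genotype came from separate embryos, so the p-values measure the spread between these libraries, which may be technical.

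MYC and MYCN are transcription factors that bind DNA only as dimers with MAX, at the E-box sequence CACGTG, and are best known for driving cell growth, ribosome production and entry into the cell cycle. MXD1, MXD3, MXD4, MXI1 and MNT compete for MAX and bind the same sites, where they recruit SIN3 and histone deacetylase corepressors. MLX is a MAX-like protein that pairs with MXD1, MXD4 and MNT, and with the nutrient-sensing factors MLXIP and MLXIPL.

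Promoters are printed because the network's proteins are known to bind E-boxes, and they show which members carry those letters near the start. A RefSeq window of 250 bases before to 50 bases after the transcription start (build GRCm38.p6) was at hand for 8 of the 9 members, all but Myc. The E-box CACGTG, which reads the same on both strands, lay in the windows of Max, Mxd4, Mnt and Mlx, which is 50% of the 8 members, against 8.09% of 27025 genes with a window and 11.3% of the 10003 tested genes with one. A single form of the E2F motif, TTCCCGC, was searched on both strands, and other forms were not. It lay in the Mxd3 window among the members and in 9.38% of the tested genes with a window. E2F factors are known for switching on genes of the G1/S transition. No E-box overlapped an E2F match in these members, and Mycn, Mxd1 and Mxi1 held neither of the strings searched. Other forms of an E2F site may lie in their windows. A match describes letters in a window and not a bound site. The 5 promoters with a match are given 5′ to 3′ on the strand of the gene, ending at the base before the start, with the motif in capitals. In Max the E-box began 3 bases before the start and ran over it, so its run is longer.
Max (GRCm38.p6, chr12:76962246-76962498, minus strand): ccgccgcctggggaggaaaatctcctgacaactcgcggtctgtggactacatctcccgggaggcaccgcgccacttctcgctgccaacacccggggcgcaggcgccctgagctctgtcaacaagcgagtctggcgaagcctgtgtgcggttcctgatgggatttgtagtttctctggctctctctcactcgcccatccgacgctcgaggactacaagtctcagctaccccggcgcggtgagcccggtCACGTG
Mxd3 (GRCm38.p6, chr13:55329732-55329981, minus strand): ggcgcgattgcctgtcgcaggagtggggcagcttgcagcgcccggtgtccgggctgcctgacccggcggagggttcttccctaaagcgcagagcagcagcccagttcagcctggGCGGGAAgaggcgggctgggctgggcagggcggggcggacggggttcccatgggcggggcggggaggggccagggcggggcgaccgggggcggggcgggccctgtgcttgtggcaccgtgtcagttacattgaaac
Mxd4 (GRCm38.p6, chr5:34187711-34187960, minus strand): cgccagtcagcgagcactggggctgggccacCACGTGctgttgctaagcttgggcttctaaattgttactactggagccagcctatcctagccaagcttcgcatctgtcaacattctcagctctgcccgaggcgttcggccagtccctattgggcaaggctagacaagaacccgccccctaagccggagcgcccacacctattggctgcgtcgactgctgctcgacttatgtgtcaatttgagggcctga
Mnt (GRCm38.p6, chr11:74830674-74830923, plus strand): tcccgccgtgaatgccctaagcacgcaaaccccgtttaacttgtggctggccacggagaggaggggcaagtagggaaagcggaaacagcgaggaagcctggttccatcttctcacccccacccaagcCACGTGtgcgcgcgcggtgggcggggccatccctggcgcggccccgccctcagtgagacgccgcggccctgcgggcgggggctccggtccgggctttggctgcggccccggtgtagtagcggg
Mlx (GRCm38.p6, chr11:101087040-101087289, plus strand): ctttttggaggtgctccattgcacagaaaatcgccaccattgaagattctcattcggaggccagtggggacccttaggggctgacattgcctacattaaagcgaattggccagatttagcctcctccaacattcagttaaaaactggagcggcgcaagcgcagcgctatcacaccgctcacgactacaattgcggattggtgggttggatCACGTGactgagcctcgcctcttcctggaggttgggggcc

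Within the network, 4 genes passed the test. Myc rose 1.54-fold and Mlx 1.25-fold in Rnf40-/- MEFs, Mxd4 rose 1.16-fold, and Mxd3 fell to 41.6% of its Rnf40+/+ level. Max, Mycn, Mxd1, Mxi1 and Mnt did not pass the test. Thus 3 of 9 members were called higher and 1 of 9 lower at an adjusted p under 0.05, while 23.3% of all genes tested were called higher, 24.1% lower and 47.4% either way. The share of members called was therefore near that of all genes. The count of 3 rests on Mxd4: only 2 members were called higher without any 1 of the 6 libraries, with DESeq2 and with no filter on low genes. The median log2 fold change was −0.07 over the members and −0.0035 over all genes tested. By the criteria given in the study's methods (mean normalized count above 15, unadjusted p under 0.05, and a log2 fold change beyond 1 in either direction), Mxd3 alone was lower and no member was higher, where 5.7% of all genes were lower and 4.25% higher.

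**Figure D1:**
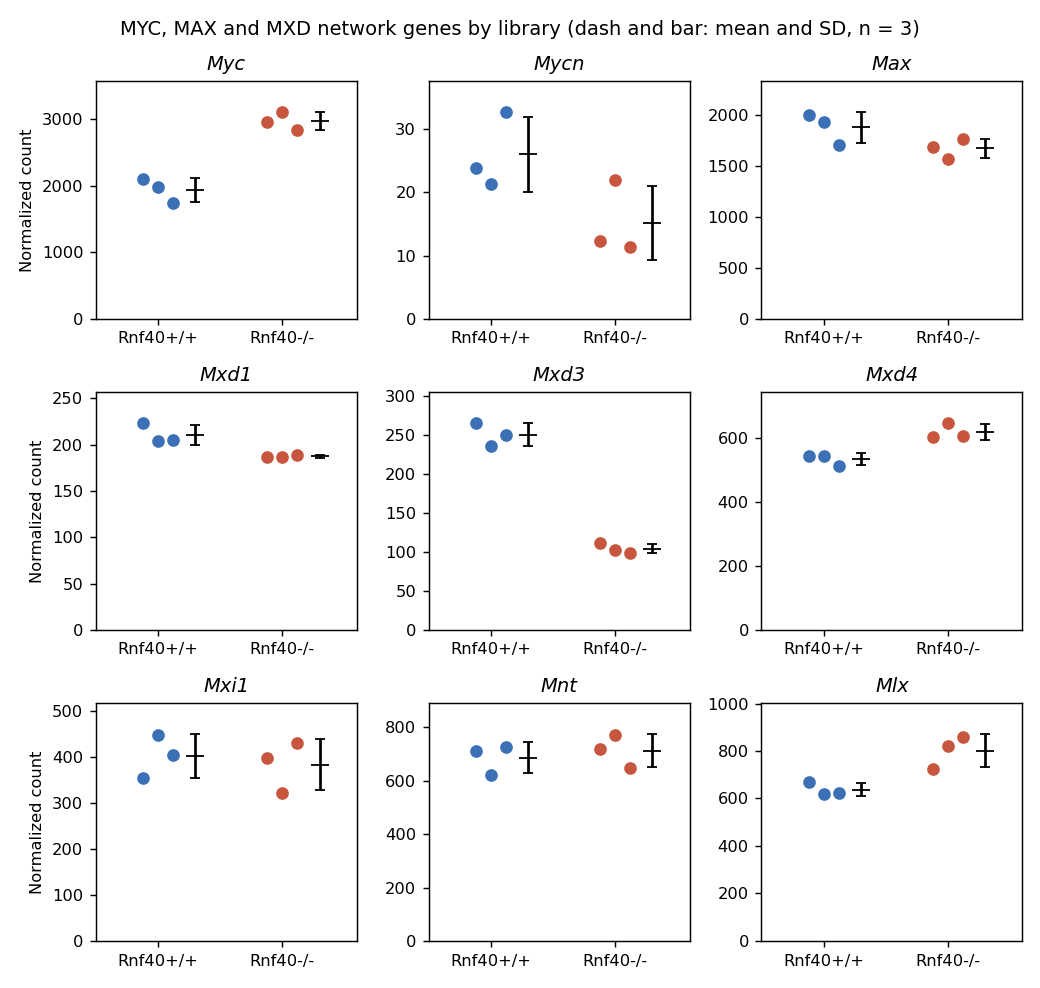
Normalized counts (vertical axes, each from 0) of the 9 members in 3 Rnf40+/+ libraries (blue points) and 3 Rnf40-/- libraries (red points), with the mean (dash) and SD (bar, n = 3) beside each genotype. The genotypes do not overlap for Myc, Mxd1, Mxd3, Mxd4 and Mlx.

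A normalized count is a read number after division by the size factor of its library, and 3 reads corresponded to between 2.40 and 3.58 normalized counts. The libraries held between 17053436 and 26344170 reads on genes. In the plot of counts by library, the genotypes did not overlap for 5 members, against 56.5% of all genes tested. Rnf40 itself was at 1190 ± 91.2 normalized counts (SD, n = 3) in Rnf40+/+ and at 482 ± 39.9 in Rnf40-/- libraries, so 40.5% of its reads were left. This count covers the whole gene, the exons outside the loxP sites included.

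Among the MYC genes, Myc (chr15:61816946-61821929, mm9, plus strand, 3 exons in the longest coding transcript) was abundant. It was measured at 2096, 1973 and 1739 normalized counts in Rnf40+/+ and at 2956, 3107 and 2837 in Rnf40-/- cultures. Every Rnf40-/- library lay above every Rnf40+/+ library. Its log2 fold change was 0.62 (SE 0.08, 95% interval 0.45 to 0.79, adjusted p = 4.72e-05).

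Mycn, the paralog that is prominent in embryonic progenitors (chr12:12942902-12948720, minus strand), was expressed at a low level. Its reads numbered 20, 21 and 41 in Rnf40+/+ and 12, 21 and 12 in Rnf40-/- libraries, or 23.9, 21.4 and 32.7 against 12.2, 21.9 and 11.3 normalized counts. One Rnf40-/- library reached into the Rnf40+/+ range. The log2 fold change was −0.78 (SE 0.36, 95% interval −1.56 to 0.0064, adjusted p = 0.0954). Without Rnf40-/- replicate 2, the overlapping library, it was −1.06 with an adjusted p of 0.048.

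The third MYC paralog, Mycl (listed as Mycl1), is no member but belongs to the wider network. It stood at 309, 273 and 240 normalized counts in Rnf40+/+ and at 101, 120 and 107 in Rnf40-/- libraries. The groups were well apart, and Mycl1 fell by 1.32 on the log2 scale (SE 0.14, adjusted p = 1.34e-05). Myc and Mycl1 thus changed in opposite directions.

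Max (chr12:78038256-78063235, minus strand, 5 exons), the shared partner of the MYC, MXD and MNT proteins, was measured at 1992, 1926 and 1706 normalized counts in Rnf40+/+ and 1680, 1565 and 1756 in Rnf40-/- libraries. Rnf40-/- replicate 3 lay above Rnf40+/+ replicate 3, so the groups overlapped. Its log2 fold change was −0.17 (SE 0.08, 95% interval −0.34 to 0.00085, adjusted p = 0.0944). Without Rnf40+/+ replicate 3 the value was −0.23 with an adjusted p of 0.016, so 1 library decided this call.

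Of the MAX partners that repress, Mxd3 (chr13:55426529-55431119, minus strand, 6 exons) changed most. MXD3 is unusual among the MXD proteins in being expressed in proliferating cells during S phase rather than on differentiation. Its normalized counts were 265, 236 and 250.0 in Rnf40+/+ and 111, 102 and 99.1 in Rnf40-/- libraries, so that the lowest Rnf40+/+ library held more than all Rnf40-/- libraries. Mxd3 fell by 1.26 on the log2 scale (SE 0.13, 95% interval −1.54 to −0.97, adjusted p = 9.72e-06). Its promoter above carried the form of the E2F motif that was searched, 136 bases before the start.

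The 12 proliferation markers moved along with Mxd3. All 12 were called lower in Rnf40-/- libraries, beside 24.1% of all genes tested. Their summed level lay between 7095 and 8570 normalized counts in Rnf40+/+ and between 2817 and 2974 in Rnf40-/- libraries. Ccnb1, the mitotic cyclin B1, fell by 3.24 on the log2 scale, and Top2a, a topoisomerase of dividing cells, fell by 3.20. The falls were uneven, and the smallest were those of Pcna, by 0.38, and Rrm2, by 0.28. The part of these markers in the Mxd3 result was not tested. In bulk RNA, fewer cells of one kind and less RNA per cell cannot be told apart.

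A second gene lies opposite a part of Mxd3. Mxd3 shares 104 exon bases with Prelid1, a mitochondrial lipid transfer protein encoded on the opposite strand, measured at 6456 ± 360.3 normalized counts in Rnf40+/+ and 3441 ± 318 in Rnf40-/- libraries. Prelid1 fell by 0.91 (log2 scale, adjusted p = 2.23e-06). The kit kept strand, but whether the counting used it is not given in the sources used here. Without strand, reads of Mxd3 and Prelid1 over the shared bases cannot be told apart.

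Mxd4 (chr5:34516536-34530369, minus strand), an MXD gene linked to differentiation and quiescence, was measured at 542, 544 and 510.3 normalized counts in Rnf40+/+ and 601, 645 and 605 in Rnf40-/- libraries. The Rnf40-/- libraries were all higher, by a small margin. It rose by 0.21 on the log2 scale (SE 0.08, 95% interval 0.037 to 0.39, adjusted p = 0.0461). This call was lost without any 1 of the 6 libraries, with log2 fold changes of 0.18 to 0.23 and adjusted p-values of 0.0625 to 0.153.

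Mxd1 (chr6:86597038-86619153, minus strand), induced in many lineages as cells leave the cycle, stood at 223, 204 and 205 normalized counts in Rnf40+/+ and at 187, 187 and 189 in Rnf40-/- libraries. The genotypes did not overlap, but the log2 fold change of −0.17 (SE 0.12, 95% interval −0.42 to 0.08) had an adjusted p of 0.254. Mxi1 (chr19:53384996-53450300, plus strand), the MXD2 gene, was spread widely within each genotype, from 353 to 448 normalized counts in Rnf40+/+ and from 321 to 429 in Rnf40-/- libraries. Its log2 fold change was −0.07 (95% interval −0.35 to 0.20, adjusted p = 0.657). Mxi1 shares 194 exon bases with Gm10197 on the opposite strand, for which no counts were given.

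Mnt (chr11:74644422-74659227, plus strand), the broadly expressed MAX partner that opposes MYC in quiescent and cycling cells alike, was at 712, 620.0 and 727 normalized counts in Rnf40+/+ and at 719, 770.2 and 647 in Rnf40-/- libraries. The ranges of the groups overlapped. The log2 fold change of 0.05 had a 95% interval of −0.15 to 0.26 (adjusted p = 0.669).

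In the MLX arm, Mlx (chr11:100948591-100953521, plus strand, 8 exons) was measured at 670.0, 619 and 623 normalized counts in Rnf40+/+ and 723, 820.3 and 858 in Rnf40-/- libraries. All Rnf40-/- libraries lay above the Rnf40+/+ range. Mlx rose by 0.33 on the log2 scale (SE 0.09, 95% interval 0.14 to 0.51, adjusted p = 0.0082). Mlx shares 385 exon bases with Psmc3ip, a meiotic recombination cofactor on the opposite strand, which fell from 50.8 ± 6.79 to 20.1 ± 3.76 normalized counts. The direction of Psmc3ip was thus opposite to that of Mlx.

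Mlxip, also called MondoA, is the glucose-sensing partner of MLX. It went from 857 ± 42.5 to 1365 ± 52.8 normalized counts (n = 3 each) and rose by 0.67 on the log2 scale (SE 0.07, adjusted p = 1.37e-05). Mlxip shares 264 exon bases with Gm15747 on the opposite strand, for which no counts were given. Mlxipl, or ChREBP, the partner known from liver and fat, held 1 to 8 reads per library and was not tested. Mga, which joins MAX in a repressive Polycomb complex, was at 813 ± 46.3 and 942 ± 71.7 normalized counts. Its log2 fold change of 0.21 narrowly missed the threshold (SE 0.08, adjusted p = 0.0513), and its adjusted p lay between 0.0193 and 0.0671 in the alternatives that kept all libraries.

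**Figure D2:**
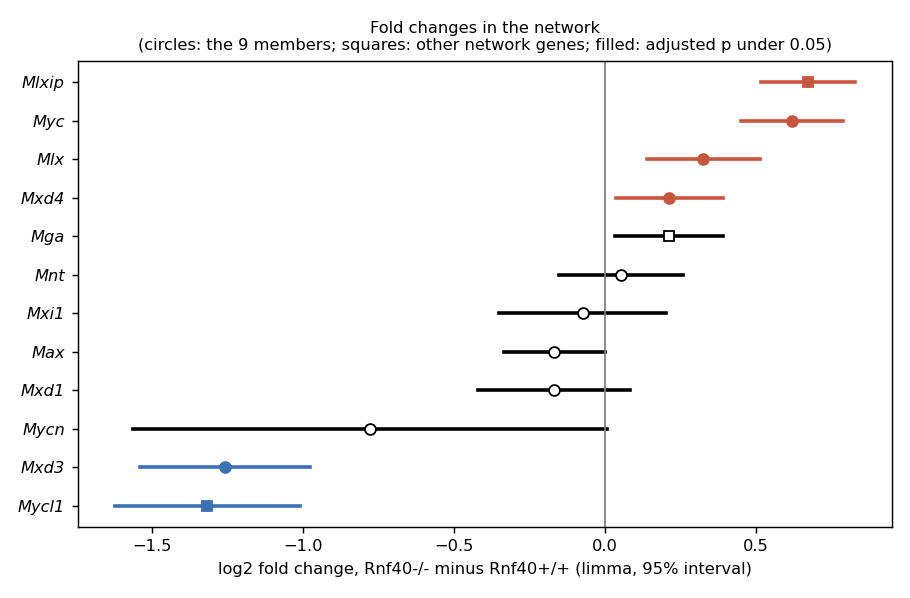
Log2 fold changes of Rnf40-/- against Rnf40+/+ libraries (horizontal axis) with 95% intervals for the 9 members (circles) and for Mycl1, Mga and Mlxip (squares), filled where the adjusted p was under 0.05. Mxd3 at −1.26 and Mycl1 at −1.32 stand at the low end, and Myc at 0.62 and Mlxip at 0.67 at the high end.

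Levels between genes were compared per kilobase of the longest coding transcript (mm9 annotation). In Rnf40+/+ libraries Max was highest, at 935 ± 74.8 normalized counts per kb, and Myc followed at 828 ± 77.5. Their ranges overlapped. Mlx stood at 324 ± 14.4, Mxd3 at 189 ± 11.1, Mnt at 149 ± 12.6, Mxd4 at 137 ± 4.86, Mxi1 at 77.9 ± 9.14, Mxd1 at 45.2 ± 2.32 and Mycn at 9.74 ± 2.23. Mnt and Mxd4 overlapped, and the other neighbours in this order did not. With the mean length of the coding transcripts in place of the longest, Mnt and Mxd4 ranked above Mxd3.

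In Rnf40-/- libraries the order differed at the top with either length, and in the middle with the longest transcript but not with the mean length, where Mxd3 ranked below Mnt and Mxd4 in both genotypes. Myc, at 1269 ± 57.8 normalized counts per kb, lay above Max at 832 ± 47.9 with no overlap. Mlx was at 407 ± 35.5, Mxd4 at 159 ± 6.30 and Mnt at 155 ± 13.5, while Mxd3 was at 78.5 ± 4.69, beside Mxi1 at 74.1 ± 10.7. Mxd4 overlapped Mnt, and Mxd3 overlapped Mxi1. Mxd1 at 40.2 ± 0.265 and Mycn at 5.68 ± 2.20 closed the order in both genotypes.

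Summed per kb, Myc and Mycn together gave 838 ± 75.6 in Rnf40+/+ and 1275 ± 59.8 in Rnf40-/- libraries. Mycl1, which is no member and fell, was left out of this MYC sum, and sums or ratios with it were not tried. The sum of Mxd1, Mxd3, Mxd4, Mxi1 and Mnt was 599 ± 14.0 and 507 ± 10.2. The ratio of the MYC sum to the MXD and MNT sum was 1.48, 1.46 and 1.26 for Rnf40+/+ and 2.48, 2.60 and 2.46 for Rnf40-/- libraries. The 3 ratios of each genotype did not overlap, but 3 against 3 libraries cannot go below an exact permutation p of 0.1 (two-sided), and no test was made.

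**Figure D3:**
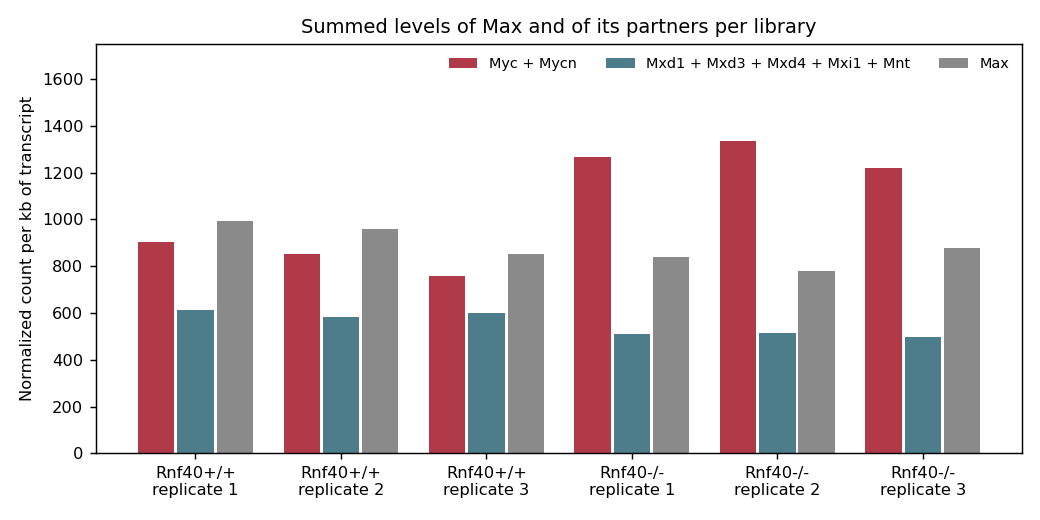
Normalized counts per kb of the longest coding transcript (vertical axis, from 0) in each of the 6 libraries for Myc plus Mycn (red), the summed MXD genes plus Mnt (teal) and Max (grey). The sum of Myc and Mycn, without Mycl1, lies below Max in the 3 Rnf40+/+ libraries and above it in the 3 Rnf40-/- libraries.

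Among the MXD genes, with Mnt left out, the makeup shifted too. Mxd3 made up 42.0% ± 2.16 of the summed level per kb of Mxd1, Mxd3, Mxd4 and Mxi1 in Rnf40+/+ and 22.3% ± 1.24 in Rnf40-/- libraries (SD, n = 3). With the mean length of the coding transcripts, the shares were 35.9% ± 1.94 and 17.8% ± 1.04. Max relative to the sum of Myc, Mycn, the MXD genes and Mnt went from 0.650 ± 0.0215 to 0.468 ± 0.0448. These are ratios of transcripts and hold no measure of the proteins or dimers. If counting ignored strand, the Mxd3 level in these shares and sums may include Prelid1 reads from the shared exon bases, which was not tested.

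Genes whose pattern over the 6 libraries was most like that of Mxd3 and Myc were found by Euclidean distance of centred log2 values. Nearest to Mxd3 were Hjurp, the chaperone of the centromeric histone (distance 0.0629), Nradd (0.122) and A730008H23Rik (0.128). Nearest to Myc were Fbxw10 (0.0703), Fam188a (0.0744) and Nr3c1, the glucocorticoid receptor (0.0768). The distances rest on 2 groups of 3 libraries, so any gene with a like fold and small spread comes near.

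The genes that lie next to the members on the chromosome were mixed. Of 18 tested neighbours, 1 on each side of each member, 3 were called higher, 7 lower and 8 not, a set chosen after its values were seen. Among all genes tested, 23.3% were called higher, 24.1% lower and 47.4% either way. Pvt1, the long noncoding RNA 47613 bases after Myc, was at 688, 653 and 720 normalized counts in Rnf40+/+ and 327, 451 and 353 in Rnf40-/- libraries. It fell by 0.88 on the log2 scale (SE 0.12, adjusted p = 7.19e-05), in the direction opposite to Myc. Rab24, a small GTPase gene 3188 bases from Mxd3, fell by 0.93 (adjusted p = 1.69e-06).

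The partners that carry out repression are the SIN3 and NCOR corepressor genes. Of 18 tested, 3 were called higher (16.7%), 5 lower (27.8%) and 10 not, with a median log2 fold change of 0.05. Over all genes tested, 23.3% were called higher and 24.1% lower, so these shares lay near the background. Sap30, a SIN3 complex subunit, fell by 0.88 (adjusted p = 0.00922) and Ing2, its H3K4me3-reading subunit, by 0.61 (adjusted p = 0.00126). Of the other SIN3 subunits, Arid4b rose by 0.52 (adjusted p = 0.00018) and Sap30l by 0.34 (adjusted p = 0.0241). Sin3a, the scaffold that MXD proteins contact, was at 1100 ± 78.5 and 1210 ± 24.9 normalized counts with a log2 fold change of 0.14 that missed the threshold (adjusted p = 0.142).

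Cofactors of MYC were as divided, with 4 of 12 higher (33.3%), 4 lower (33.3%) and 4 not called. For all genes tested, the shares were 23.3% higher and 24.1% lower. Ep400, the ATPase of the TIP60 complex, rose by 0.58 (adjusted p = 5.17e-05), and Wdr5, a subunit of H3K4 methyltransferase complexes that binds MYC, by 0.44 (adjusted p = 0.000273). Kat5, the TIP60 acetyltransferase, fell by 0.55 (adjusted p = 0.00119) and its scaffold Trrap by 0.42 (adjusted p = 0.000318). Subunits of the same complex thus changed in both directions.

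Genes that set the stability of the MYC protein were called in both directions as well. Of 11, 4 rose (36.4%), 4 fell (36.4%) and 3 were not called, beside 23.3% of all genes tested called higher and 24.1% lower. The phosphatase inhibitor CIP2A (listed as C330027C09Rik), which stabilizes MYC, fell by 1.67 (SE 0.22, adjusted p = 6.39e-05), and Skp2, an F-box protein that marks MYC for degradation and acts at G1/S, fell by 1.55 (SE 0.13, adjusted p = 2.11e-06). The ubiquitin ligase gene Huwe1 rose by 0.58 (adjusted p = 0.0002) and Ppp2r5a, a PP2A subunit that favours MYC degradation, by 0.57 (adjusted p = 5.43e-05). Fbxw7, the main F-box protein for phosphorylated MYC, was at 499 ± 64.8 and 593 ± 24.0 normalized counts, with an adjusted p of 0.0545. What part the proliferation markers above had in the calls of this list was not tested.

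The known targets of MYC in growth were called in both directions. In 4 lists, for nucleolus and ribosome production, nucleotides and polyamines, translation, and metabolism and transport, 13 of 60 genes were called higher and 20 lower, which is 21.7% and 33.3% beside 23.3% and 24.1% of all genes tested. Over the 60 genes, the median log2 fold change was −0.10. These lists and all others here were drawn from textbook knowledge, with earlier results of these data known.

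Among the 25 nucleolar genes, 5 rose, 10 fell and 10 were not called. Bop1, needed to process ribosomal RNA, had 1218, 1429 and 1347 normalized counts in Rnf40+/+ and 2720.5, 2678 and 2908 in Rnf40-/- libraries. Bop1 rose by 1.06 (SE 0.07, adjusted p = 4.99e-07), and Rrn3, a factor for RNA polymerase I, by 0.68 (adjusted p = 7.26e-06). Nop56, a core protein of box C/D particles, fell by 0.75 (adjusted p = 2.27e-06) and Gnl3, nucleostemin, by 0.69 (adjusted p = 6.35e-05). The abundant Ncl and Npm1, nucleolin and nucleophosmin, had log2 fold changes of 0.20 and −0.16 that missed the threshold (adjusted p = 0.054 and 0.0703).

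Of 16 nucleotide and polyamine genes, 4 rose and 5 fell. Odc1, the rate-limiting enzyme of polyamine synthesis and a textbook MYC target, was measured at 2994, 2808 and 2864 normalized counts in Rnf40+/+ and 5138, 4799 and 4988 in Rnf40-/- libraries. The groups were far apart, and Odc1 rose by 0.78 (SE 0.06, adjusted p = 1.15e-06), as did Prps2, a phosphoribosyl pyrophosphate synthetase, by 0.77 (adjusted p = 8.04e-06). Shmt1 and Mthfd1l, enzymes of one-carbon metabolism, fell by 1.07 (adjusted p = 0.000441) and 0.86 (adjusted p = 1.86e-05). Cad, the first enzyme of pyrimidine synthesis and another classic target, had a log2 fold change of −0.11 (adjusted p = 0.177).

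For translation, 2 of 8 genes rose and 2 fell. Eif2b1 rose by 0.32 (adjusted p = 0.0026) and Eif3b by 0.27 (adjusted p = 0.0101), while Eif5a fell by 0.47 (adjusted p = 0.000215) and the helicase gene Eif4a1 by 0.40 (adjusted p = 0.000317). Of 11 metabolic genes and transporters, 2 rose and 3 fell. The amino acid transporter gene Slc1a5 rose by 0.38 (adjusted p = 0.00582). Ldha, lactate dehydrogenase, fell by 0.52 (adjusted p = 0.000104) and Slc7a5, another such transporter gene, by 0.48 (adjusted p = 0.00156).

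Targets that act in the cell cycle fell. Of 9, 8 were called lower and none higher, with a median log2 fold change of −0.71, beside 24.1% of all genes called lower. Cdk4, the G1 kinase, went from 6690.1, 6647 and 7410 normalized counts in Rnf40+/+ to 3289, 3045 and 3526 in Rnf40-/- libraries, and fell by 1.07 (SE 0.07, adjusted p = 3.93e-07). Cks2, a subunit that binds cyclin-dependent kinases, fell by 1.72 (adjusted p = 2.6e-06), Tert, the telomerase subunit, by 0.88 (adjusted p = 0.00623) and Ccnd2, cyclin D2, by 0.59 (adjusted p = 7.12e-05). E2f2, a low gene, was not called, at 19.5 ± 5.41 and 18.3 ± 3.93 normalized counts. The 12 proliferation markers above fell in the same libraries, and their part in this count was not tested.

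Of 10 genes that MYC is known to repress, 6 fell, 1 rose and 3 were not called, beside 24.1% of all genes tested called lower and 23.3% higher. Their median log2 fold change was −0.64. One of the 6, Pdgfrb, is also counted among the fibroblast markers below. The 12 proliferation markers fell in the same libraries, and their part in this count was not tested either. Cdkn1a, the CDK inhibitor p21, was measured at 13556, 14880 and 14639 normalized counts in Rnf40+/+ and 8930.2, 8937 and 9466 in Rnf40-/- libraries, and fell by 0.66 (SE 0.07, adjusted p = 8.2e-06). Cebpa, a differentiation factor, fell by 1.38 (adjusted p = 0.0021) and Gas1, a growth arrest gene, by 0.92 (adjusted p = 0.000381). Ndrg1, a stress-induced gene, rose by 0.93 (adjusted p = 0.000253).

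Of the targets of MLX with MLXIP, Arrdc4 rose by 0.49 (SE 0.09, adjusted p = 0.00114), and Txnip, a brake on glucose uptake, had a log2 fold change of 0.14 that missed the threshold (adjusted p = 0.17). Pklr, the liver pyruvate kinase gene, held 68 reads in Rnf40+/+ replicate 1 and 0 in every other library, and was not tested.

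**Figure D4:**
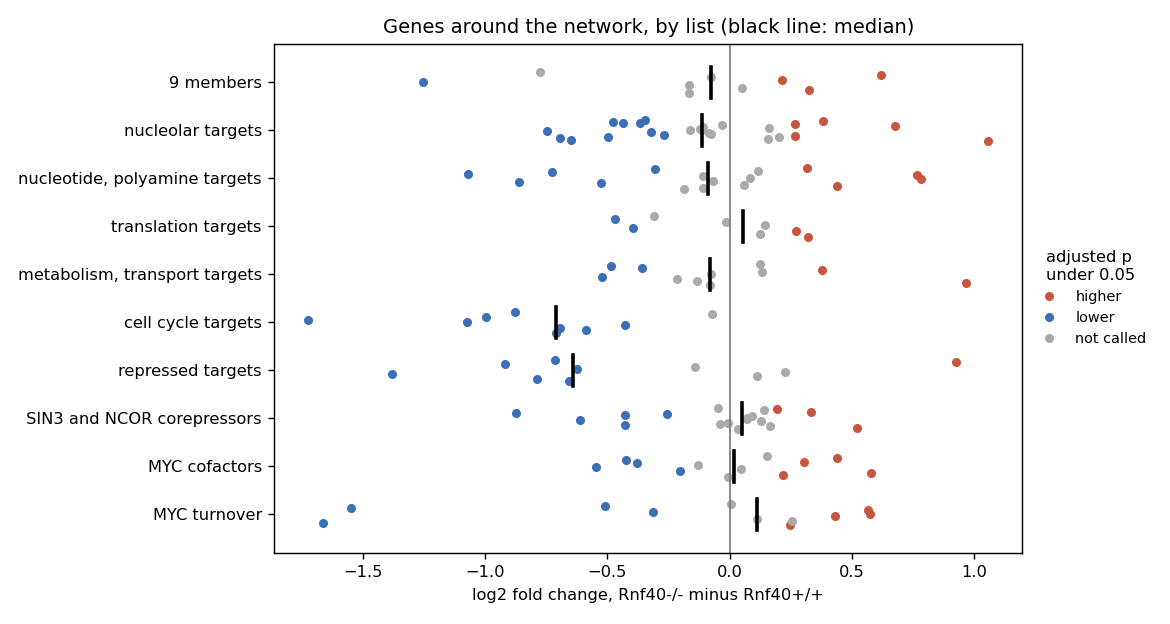
Log2 fold changes of Rnf40-/- against Rnf40+/+ libraries (horizontal axis) for the tested genes of 10 lists (rows), coloured red where called higher, blue where called lower and grey where not called, with each list's median as a black line. The members and the growth lists straddle 0, and the cell cycle and repressed targets lie mostly to the left, with medians of −0.71 and −0.64.

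Whether a promoter held an E-box was then set beside the calls. Of 1133 tested genes with an E-box in the window, 24.6% were higher and 27.8% lower, with a median log2 fold change of −0.02. Of 8870 without one, 24.6% were higher and 26.4% lower, with a median of −0.01. No test of these shares was made. Of 938 genes with the E2F motif, 22.6% were higher and 30.8% lower, against 24.8% and 26.1% of 9065 without it. Among the members, Mxd4 and Mlx held an E-box and rose, while Max and Mnt held one and were not called. In the growth lists, the E-box lay in 6 of 21 nucleolar, 5 of 15 nucleotide and polyamine, 4 of 7 translation and 2 of 8 metabolic genes with a window. It lay in 1 of 7 cell cycle targets and 1 of 7 repressed targets, beside 11.3% of all tested genes with a window. These lists are known MYC targets, so the shares are no independent result.

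The cell type was checked against its markers. All 12 fibroblast markers were expressed, and their summed level was 712608 to 789930 normalized counts in Rnf40+/+ and 419366 to 422289 in Rnf40-/- libraries. Of the 12, 10 were called lower, where 24.1% of all genes tested were lower and 23.3% higher. Postn, periostin, fell by 2.50 and Col1a2, a collagen I chain, by 2.26 on the log2 scale. Macrophage markers summed to between 5560 and 9476 against between 3570 and 3943 (8 tested, 2 higher and 2 lower), and muscle markers to between 120 and 437 against between 29.2 and 47.2, with Myod1 at 0 in every library. Of these, Ptprc (1.37) and Cd14 (0.66) rose on the log2 scale, while Tyrobp (−1.71), Lyz2 (−1.18) and the muscle gene Des (−2.38) fell. Endothelial markers were low, at 51.0 to 146 against 179 to 283 (4 tested, 3 higher), with rises of 3.26 for Cdh5 and 2.58 for Pecam1. Cdh5 held 2, 5 and 1 reads in Rnf40+/+ and 31, 38 and 25 in Rnf40-/- libraries. Pecam1 held 4, 4 and 3 against 28, 34 and 20. Both were kept for testing by their Rnf40-/- reads, so the size of these rises is uncertain. In the alternatives that kept all libraries, 1 to 3 endothelial genes were called higher. Neural markers summed to between 1790 and 3174 against between 1925 and 2157 (Stmn2 rose by 0.48). Epithelial markers summed to between 33.7 and 107 against between 39.7 and 64.2, and erythroid markers to at most 8.50 in every library, with Hbb-b1 at 0. Rnf40+/+ replicate 1 alone set the upper Rnf40+/+ ends of the muscle, endothelial, epithelial and neural sums. In normalized counts, it held Des at 431 against 126 and 114 in the other Rnf40+/+ libraries, and Tek at 115 against 11.2 and 16.0. Krt8 was at 58.5 there against 1.02 and 9.58, and Tubb3 at 2670 against 1275 and 1353. The part of these marker shifts in the members' results was not tested.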

How the data were processed

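RNA-seq of 3 Rnf40+/+ and 3 Rnf40-/- MEF libraries, made with a strand-specific kit, was analysed from the deposited table of 1 value per gene and library. The authors mapped reads to mm9 and normalized the counts with DESeq; the submitters' processing notes name Bowtie2 (2.1.0) and DESeq (1.14.0), and the counting tool is not given in the sources used here. The deposited signal is a count divided by a size factor: in each library, 100% of the values above 0 were a whole number of times its smallest value (tolerance 0.001), and the reads were recovered from that step. Size factors were 0.837, 0.981 and 1.25 for Rnf40+/+ and 0.981, 0.958 and 1.06 for Rnf40-/- libraries. No library was a duplicate of another.

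Genes were kept with filterByExpr of edgeR (4.0.16) and tested with limma (3.58.1) by a trended eBayes fit to log2(normalized count + 1) with a genotype term alone, and p-values were adjusted by Benjamini-Hochberg over the whole set. Fold changes are on that scale, which understates changes of low genes. The scripts were tested on simulated data. As alternatives, TMM, DESeq2 and upper-quartile factors, edgeR's quasi-likelihood test and DESeq2 (1.42.0) on recovered reads, pseudocounts of 0.1 and 10, other filters, the replicate number as a block, mean transcript lengths and leaving out each library were tried.

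The members and lists were chosen with earlier results of these data known. Text names all members, Mycl1, Mga, Mlxip, Mlxipl, Rnf40, a few textbook targets, and of each list the 2 largest rises and 2 largest falls past the threshold; overlapping and neighbouring genes were added after their values were seen. Motifs were searched in RefSeq windows (GRCm38.p6), and other coordinates are mm9. One gene that this rule names is not reported here.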

Additional observations from a re-analysis of the deposited data

How the results depend on the processing

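The directions of Myc, Mxd3 and Mlx and their side of the threshold held in each alternative run. Among these, the run with DESeq2 size factors gave the same values as the main run, so it was no separate check. On the recovered reads, edgeR's quasi-likelihood test called 3857 genes higher and 3940 lower and DESeq2 3563 and 3726, beside 3809 and 3955. More genes were higher than lower with upper-quartile factors (4299 and 3536) and without a filter (4001 and 3844). Mxd4 was not called by DESeq2 (0.22, adjusted p = 0.0817) or without a filter (0.21, adjusted p = 0.0536), nor without any 1 library (0.18 to 0.23), which left 2 members called higher. Leaving out 1 library gave −0.23 to −0.12 for Max and −1.06 to −0.61 for Mycn, each past the threshold without 1 library only (Rnf40+/+ replicate 3 for Max, adjusted p = 0.016, and Rnf40-/- replicate 2 for Mycn, adjusted p = 0.048). It gave 1 to 2 members called lower, and 1 to 2 lower by the criteria of the study. The values of Mxi1 and Mnt, which were not called in any alternative, lay on both sides of 0 when 1 library was left out, at −0.16 to 0.045 and −0.018 to 0.12.

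Among the lists, upper-quartile factors gave 2 of the other network genes, 4 translation targets and 2 repressed targets called higher. Mga, with Mlxip, made 2 other network genes higher with edgeR, with at least 10 reads in every library and with the replicate block. Without 1 library, the genes called higher numbered 1 to 2 in the other network genes, 1 to 3 in the corepressors, 3 to 6 in the nucleolar, 1 to 2 in the translation, 1 to 2 in the repressed and 1 to 2 in the MLX targets. With mean transcript lengths, the ratio of the MYC sum to the MXD and MNT sum was 2.31 in Rnf40-/- libraries. The causes were not tested.

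Same-numbered libraries had deviations from their group means that correlated at −0.015, 0.026 and 0.022, against −0.095 to 0.072 for other-numbered ones. With 3 libraries per genotype, these values cannot decide whether the replicate numbers pair the libraries. With the replicate number as a block, 4021 genes were higher and 4196 lower, no member's call changed, and Mga was called (0.21, adjusted p = 0.0465). Among the network genes, Mycn held 12 to 41 and Mlxipl 1 to 8 reads per library.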
